A study of Homo sapiens with 27 samples.

Results

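The 10 genes described here encode integrin subunits, namely the alpha subunits ITGA2, ITGA4, ITGA5 and ITGAV and the beta subunits ITGB1, ITGB2, ITGB3, ITGB5, ITGB6 and ITGB8. They were chosen by name, as matrix-binding and TGF-beta-activating integrins, and make up 10 of the 57165 genes in the deposited table and 10 of the 26 human integrin subunit genes counted here. All 10 had a row in the table.

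RNA was sequenced from 27 libraries of SUM159 and MDA-MB-231, human triple negative breast cancer cell lines of the claudin-low, mesenchymal type, in 9 groups of 3. SUM159 was sampled as untransduced wild type cells (in sequencing run 1, and again in run 2), as No gRNA cells that carry the lentiviral vector for dCas9-KRAB without a gRNA, and as cells in which the vector was joined by gRNA 4, or by all 4 gRNAs, directed at the promoter of ZEB1, a repressor of epithelial genes. MDA-MB-231 was sampled as wild type cells, No gRNA cells and 2 ZEB1-targeted groups, all in run 2. dCas9-KRAB is a Cas9 that does not cut, joined to a domain that silences promoters. For the 2 targeted MDA-MB-231 groups the labels conflict over which received gRNA 4 and which the pool, so they are called set 1 and set 2. Transduced cells of both lines were selected with puromycin, so No gRNA, gRNA 4, All gRNA, set 1 and set 2 differ from wild type in vector and selection together. The libraries are described as individual clones, and whether wild type was cloned in the same way is not stated. With 3 libraries a group the p-values measure the spread between replicate libraries, pooled over the groups of a fit. An exact permutation test of 3 against 3 cannot go below 0.1.

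Integrins are receptors of 1 alpha and 1 beta chain that tie the extracellular matrix to the cytoskeleton. ITGB1 pairs with many alpha chains, among them ITGA2 for collagens, ITGA4 for VCAM1 and fibronectin, and ITGA5 for fibronectin. ITGAV pairs with ITGB1, ITGB3, ITGB5, ITGB6 or ITGB8, and these receptors bind vitronectin, fibronectin or the latency peptide of TGF-beta, with the ITGB6 and ITGB8 forms best known for releasing active TGF-beta. ITGB2 is the beta chain of leukocyte integrins. In epithelial-mesenchymal transition, integrins change along with cell junctions and matrix.

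ZEB1, the targeted gene, was between 65.3 and 121.7 CPM (counts relative to the TMM-adjusted size of each library) in the wild type and No gRNA libraries and between 0.374 and 5.78 CPM in the targeted libraries, with no overlap. Libraries held 15461200 to 21473757 estimated counts. VIM, a mesenchymal marker, was at 1322 to 4314 CPM in all 27 libraries, and ESR1 did not exceed 0.185 CPM. Wild type SUM159 of run 2 stood apart from that of run 1 at 62.1% of the genes tested, so wild type MDA-MB-231 was compared with wild type SUM159 of each run. The test of the gRNA change between the lines used SUM159 of run 1.

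ZEB1 binds E-boxes of the sequence CACCTG. Start-site windows of RefSeq on GRCh38.p14, each of 300 bases (250 before and 50 after the start), were at hand for 8 of the 10 genes, in 12 windows. Those of ITGB2 and ITGB3 were not used here. CACCTG on either strand (searched as CACCTG and CAGGTG) was present in 2 of the 12 windows and in 20.6% of all 35116 windows of the same length. The 2 are the window of ITGB6 and that of ITGB5 at its canonical start. These are shown because ITGB5 moved in both lines and ITGB6 was above the count floor in MDA-MB-231 alone, and the window of ITGA2, without a match, is set beside them because ITGA2 also moved in both lines. Each reads 5′ to 3′ on the strand of the gene, with the match in capitals.
ITGB6, chr2:160200223-160200522, minus strand: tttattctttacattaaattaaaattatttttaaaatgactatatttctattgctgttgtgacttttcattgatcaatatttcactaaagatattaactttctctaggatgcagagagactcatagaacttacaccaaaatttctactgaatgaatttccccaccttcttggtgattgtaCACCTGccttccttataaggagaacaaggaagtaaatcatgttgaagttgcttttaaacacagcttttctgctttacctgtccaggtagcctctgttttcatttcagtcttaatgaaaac
ITGB5, chr3:124887316-124887615, minus strand: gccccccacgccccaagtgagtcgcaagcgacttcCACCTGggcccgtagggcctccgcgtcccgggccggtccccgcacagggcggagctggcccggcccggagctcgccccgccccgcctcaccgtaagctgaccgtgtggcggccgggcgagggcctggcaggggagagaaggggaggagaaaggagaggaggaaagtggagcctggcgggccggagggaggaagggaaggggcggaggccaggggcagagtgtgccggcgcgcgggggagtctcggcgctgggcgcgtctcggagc
ITGA2, chr5:52989102-52989401, plus strand: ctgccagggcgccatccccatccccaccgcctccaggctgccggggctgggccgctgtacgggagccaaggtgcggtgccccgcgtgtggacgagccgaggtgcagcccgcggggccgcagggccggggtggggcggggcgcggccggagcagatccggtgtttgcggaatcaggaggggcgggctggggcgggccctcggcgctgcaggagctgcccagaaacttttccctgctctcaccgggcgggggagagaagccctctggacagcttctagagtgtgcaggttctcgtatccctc
The match begins 70 bases before the start site in ITGB6 and 215 bases before it in ITGB5, at positions -70 and -215. ITGB5 also had windows at starts 319 and 14053 bases from the canonical start, which held no match. GC content was 31.7% in the ITGB6 window, 75.7% in the ITGB5 window and 72.7% in the ITGA2 window. A match of letters is a description and not a binding site. On GRCh38, ITGA2 (ENSG00000164171) spans chr5:52989340-53094779 on the plus strand with 30 exons in its canonical transcript, ITGB5 (ENSG00000082781) chr3:124761948-124901418 on the minus strand with 15, ITGB3 (ENSG00000259207) chr17:47253827-47313743 on the plus strand with 15, and ITGB6 (ENSG00000115221) chr2:160099667-160200313 on the minus strand with 15.

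Both lines expressed a collagen and fibronectin receptor set built on ITGB1, while ITGA4, ITGB2, ITGB3, ITGB6 and ITGB8 were low or absent. CPM per kb of the Ensembl canonical transcript allows an approximate comparison of genes, because the transcripts expressed may differ from it in length. On this scale ITGB1 was the most abundant of the 10 genes in each of the 9 groups. It was at 214 ± 8.27 (SD, n = 3) in SUM159 wild type of run 2 to 333 ± 9.21 in MDA-MB-231 set 1. ITGA2 and ITGA5 came next in every group, between 30.6 ± 2.57 for ITGA5 in MDA-MB-231 wild type and 159 ± 7.82 for ITGA2 in set 1. ITGAV and ITGB5 followed, and their libraries overlapped only in set 2, where ITGB5 was at 25.2 ± 1.75 and ITGAV at 22.1 ± 1.71 CPM per kb. The remaining 5 genes were below 8 CPM per kb in every group.

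Among the 4 beta chains that pair with ITGAV and no other alpha chain of this set, ITGB5 made up nearly all of the length-scaled total. Its share was 91.3% ± 1.35 in MDA-MB-231 set 1, the lowest group mean, and 97.4% ± 0.773 in set 2, the highest. The ITGB3 share was 4.32% ± 0.223 in MDA-MB-231 No gRNA and 0.699% ± 0.250 in set 2, with no overlap of the libraries, while set 1, at 4.05% ± 1.18, overlapped No gRNA. The highest ITGB3 shares were in SUM159, at 6.98% ± 0.663 in wild type of run 2 and 6.69% ± 0.498 in No gRNA. ITGB6 reached 4.33% ± 1.18 in set 1, and ITGB8 did not exceed 1.66% ± 0.200, in SUM159 wild type of run 1.

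The leukocyte and epithelial members separated the lines or were not detected. ITGA4 was at 0 counts in 23 of the 27 libraries and above the floor of 3 counts in 1, a set 1 library with 5.16 counts, so no fold is given for it. ITGB2 was above 3 counts in 15 libraries, the 12 of MDA-MB-231 and the 3 of SUM159 wild type run 2, which held 8.18 to 8.74 counts. In MDA-MB-231 wild type, ITGB2 read 12.2, 10.1 and 12.4 CPM in the 3 libraries. Across runs, that was at least 79.2-fold above SUM159 wild type of run 1. There all 3 libraries were at 0 and the floor of 3 counts per library is 0.146 CPM. Within run 2, ITGB2 had a mean of 0.532 CPM in SUM159 wild type, a log2 difference of -4.37 from MDA-MB-231 (SE 0.261, TREAT adjusted p = 2.89e-05). ITGB6, an epithelial integrin chain, was above 3 counts only in the 12 MDA-MB-231 libraries. It read 3.20, 1.05 and 2.76 CPM in MDA-MB-231 wild type, at least 12.3-fold above SUM159 wild type of run 2 with all libraries at 0, and at least 15.99-fold above run 1, where the highest count was 1.85.

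**Figure D1:**
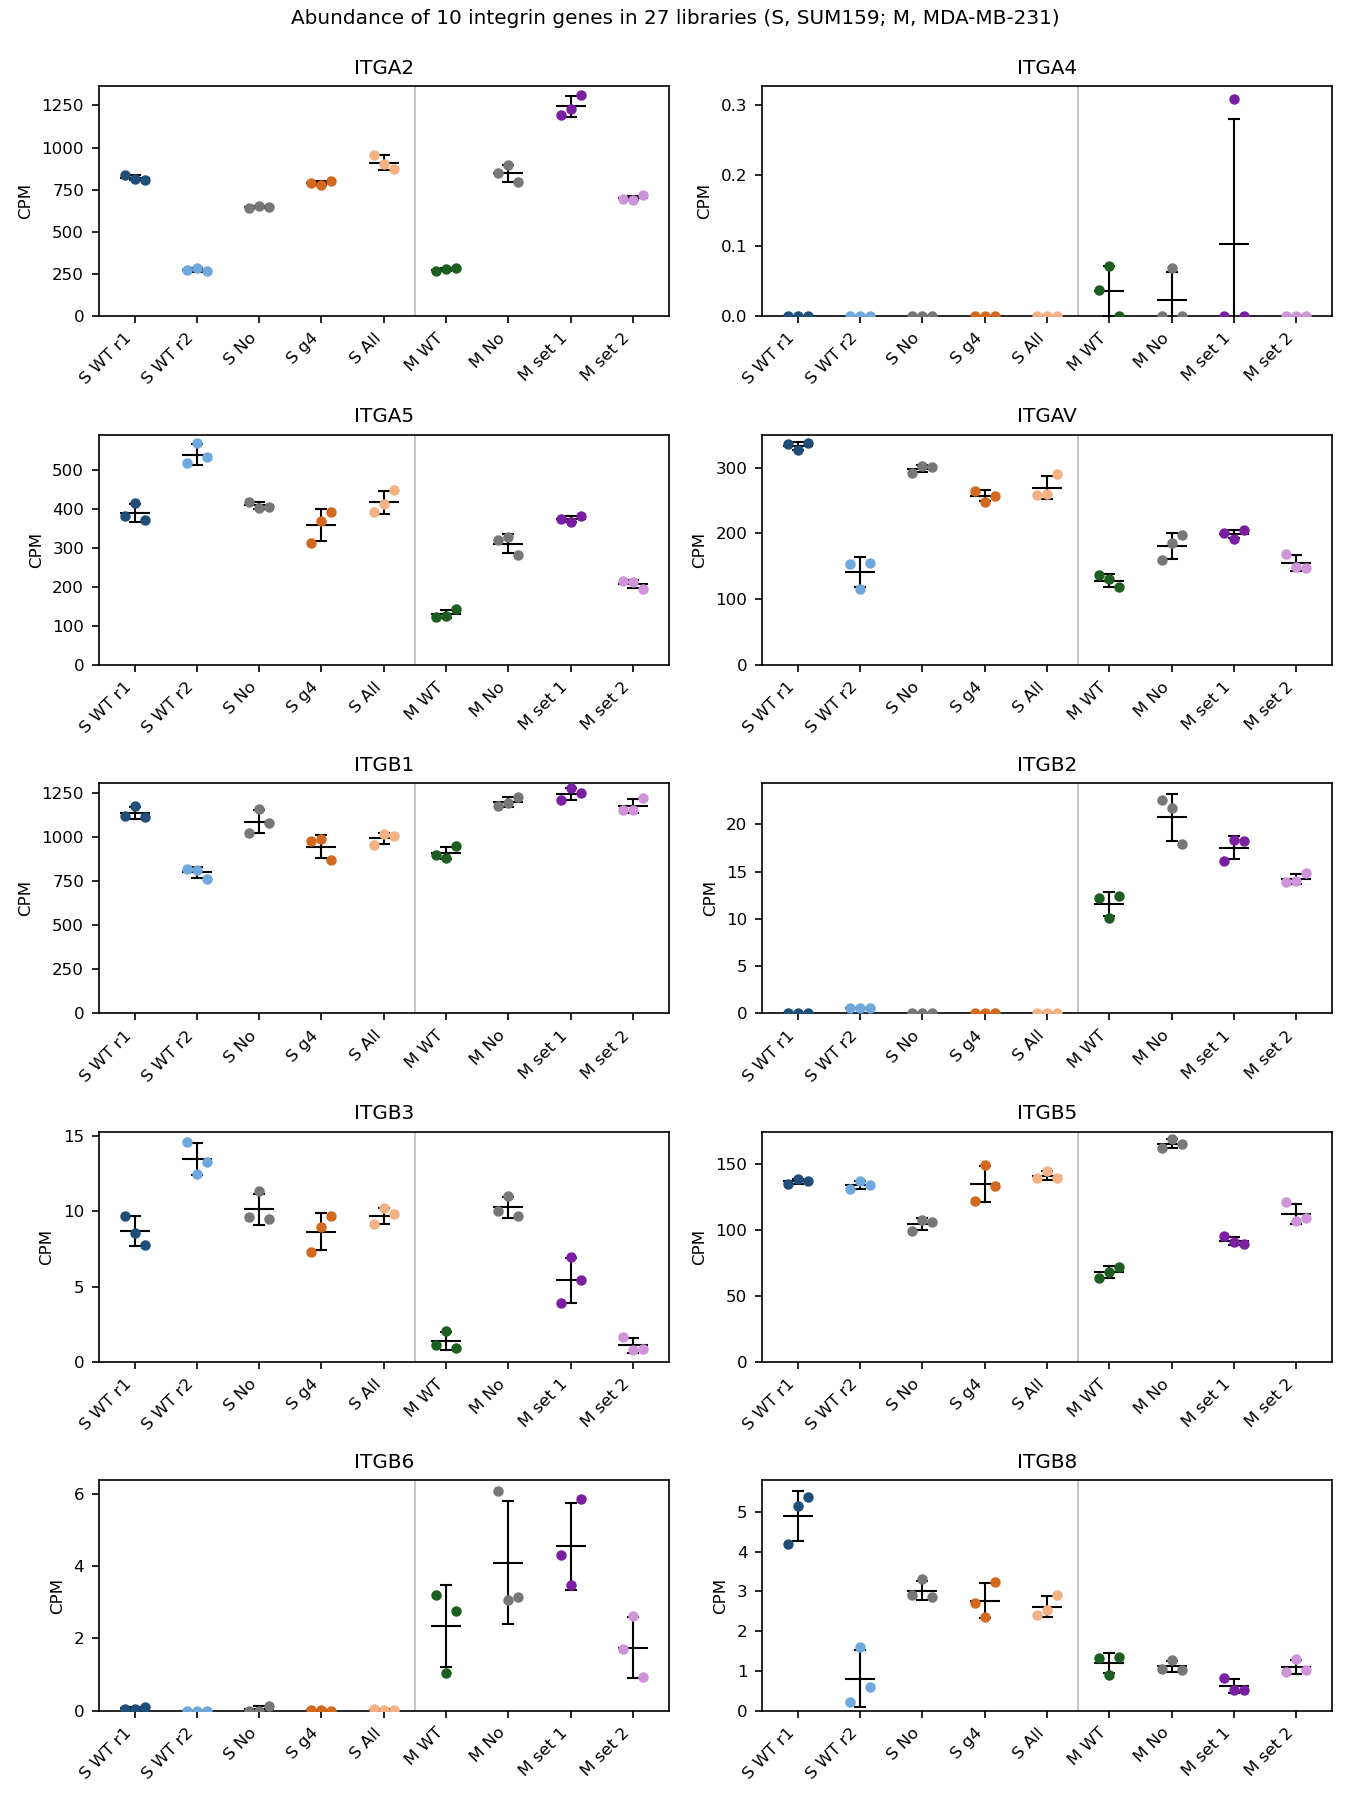
CPM of the 10 genes in every library (points), with the mean and SD of 3 libraries (bars), for SUM159 (S: WT r1 and WT r2, wild type in runs 1 and 2, No, No gRNA, g4, gRNA 4, All, all 4 gRNAs) and MDA-MB-231 (M); each panel has its own linear axis from 0. ITGB5 is above No gRNA in the targeted SUM159 groups and below No gRNA in the targeted MDA-MB-231 groups.

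In SUM159, targeting ZEB1 went with small rises of ITGA2 and ITGB5 and, with gRNA 4, small falls of ITGAV and ITGB1. Of the 7 genes that passed the filter on low counts (ITGA4, ITGB2 and ITGB6 did not), 2 were called by limma's moderated test in All gRNA against No gRNA, both higher, where 10.8% of 15147 genes tested were called. In gRNA 4 against No gRNA it called 4, of them 2 higher and 2 lower, where 11.0% of genes were called. The median log2 fold change of the 7 was -0.052 in All gRNA, beside 0.00013 over all genes, and -0.20 in gRNA 4, beside -0.00067. None of the 7 passed TREAT, a test against a log2 fold change of 1, which called 0.396% of genes in All gRNA and 0.390% in gRNA 4. Both comparisons share the No gRNA libraries.

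The collagen receptor chain ITGA2 read 644, 656 and 646 CPM in the No gRNA libraries, 790, 775 and 804 CPM with gRNA 4, and 958, 902 and 873 CPM in All gRNA. In bulk RNA, a change in every cell and a change in the share of cells with the transcript cannot be told apart. The 3 groups did not overlap, and the order ran from No gRNA over gRNA 4 to All gRNA. The log2 fold change of ITGA2 was 0.49 (SE 0.0399, adjusted p = 9.82e-06) in All gRNA, a 1.41-fold rise, and 0.28 (SE 0.0407, adjusted p = 9.35e-04) with gRNA 4. Between the targeted groups themselves ITGA2 was higher in All gRNA, by 0.22 on the log2 scale (SE 0.0391, adjusted p = 0.0282), and it was the 1 member called where 0.944% of genes were (TREAT 0%). That call was lost without any 1 of All gRNA replicates 1 and 2 and gRNA 4 replicates 1, 2 and 3, with adjusted p between 0.0587 and 0.101.

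The fibronectin receptor chain ITGA5 read 419, 403 and 405 CPM in No gRNA, 313, 369 and 393 CPM with gRNA 4 and 391, 411 and 450 CPM in All gRNA. Its log2 fold changes were -0.20 (SE 0.0797, adjusted p = 0.134) and 0.033 (SE 0.0780, adjusted p = 0.838), neither past the threshold. ITGAV read 292, 302 and 301 CPM in No gRNA, 265, 249 and 258 CPM with gRNA 4 and 259, 260 and 290 CPM in All gRNA. Each targeted library of ITGAV lay below each No gRNA library. Only the fall with gRNA 4 was called, at -0.22 (SE 0.0509, adjusted p = 0.0148), while All gRNA gave -0.14 (SE 0.0504, adjusted p = 0.0977), and the 2 targeted groups differed by 0.080 (SE 0.0513, adjusted p = 0.606). ITGB1 read 1023, 1156 and 1079 CPM in No gRNA, 976, 987 and 868 CPM with gRNA 4 and 953, 1014 and 1005 CPM in All gRNA. With gRNA 4 its log2 fold change was -0.21 (SE 0.0557, adjusted p = 0.0316) and All gRNA gave -0.13 (SE 0.0551, adjusted p = 0.181). Without All gRNA replicate 3, ITGAV was called in All gRNA too, at -0.20 (adjusted p = 0.0287), and so it was with all libraries by DESeq2 (0.0451). The ITGAV and ITGB1 calls with gRNA 4 were both lost without No gRNA replicate 2 (adjusted p = 0.0505 and 0.110), that of ITGAV also without gRNA 4 replicate 2 (0.0621), and that of ITGB1 also without No gRNA replicate 3 (0.0708) or gRNA 4 replicate 3 (0.104).

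Of the vitronectin and TGF-beta receptor chains, ITGB5 moved and ITGB3 and ITGB8 were not called. ITGB5 read 99.1, 107.5 and 106.1 CPM in No gRNA, 122, 149 and 133 CPM with gRNA 4 and 139, 145 and 139 CPM in All gRNA. Every targeted library was above every No gRNA library. The log2 fold change was 0.44 (SE 0.0666, adjusted p = 0.00134) in All gRNA and 0.36 (SE 0.0674, adjusted p = 0.00480) with gRNA 4, and the targeted groups differed from each other by 0.081 (SE 0.0645, adjusted p = 0.704). ITGB3 was between 7.33 and 11.3 CPM over the 9 libraries, with log2 fold changes of -0.052 (SE 0.133, adjusted p = 0.851) in All gRNA and -0.24 (SE 0.137, adjusted p = 0.306) with gRNA 4. ITGB8 was between 2.37 and 3.31 CPM, with -0.20 (SE 0.184, adjusted p = 0.548) and -0.14 (SE 0.184, adjusted p = 0.701).

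**Figure D2:**
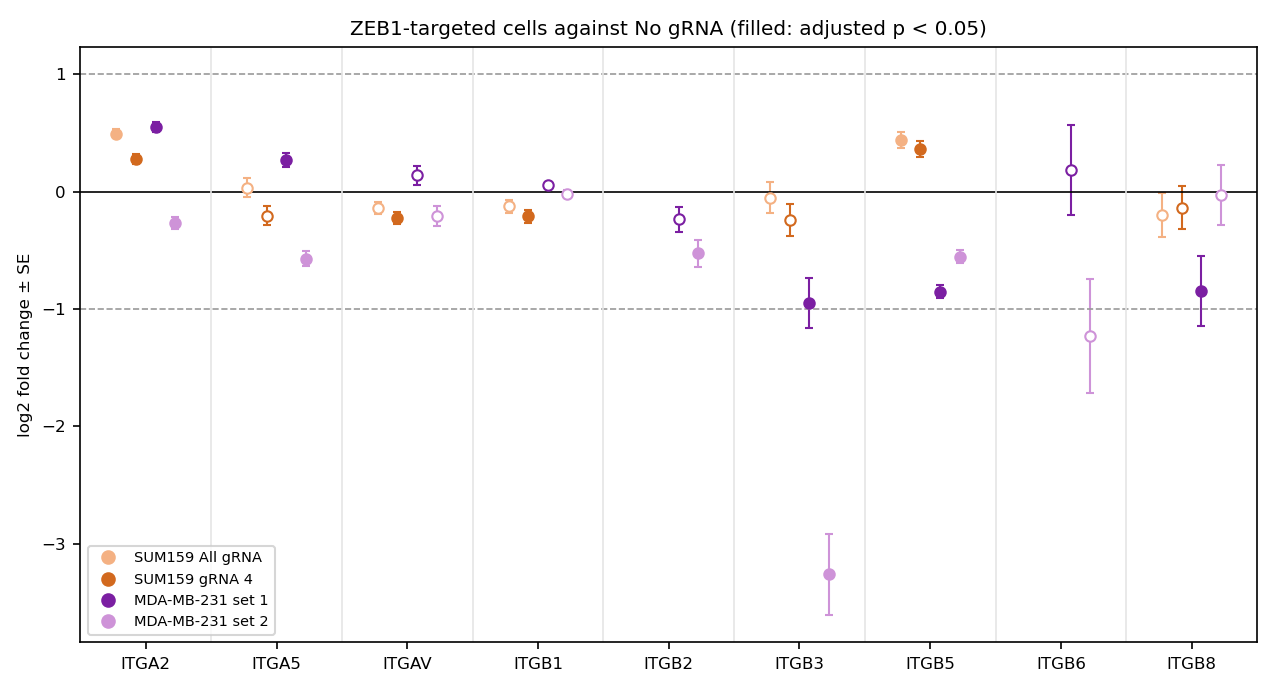
Log2 fold change against No gRNA, with its SE, for the 9 genes tested in at least 1 line, in the 2 targeted groups of SUM159 and of MDA-MB-231. Filled points have an adjusted p under 0.05 by limma's moderated test, and dashed lines mark a log2 fold change of 1 either way. ITGB3 in set 2, at -3.26, is the only point whose TREAT test passed.

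In MDA-MB-231, ITGB5 and ITGB3 were lower than No gRNA in both targeted sets, whereas ITGA2 and ITGA5 were higher in set 1 and lower in set 2. Of the 9 genes tested, the moderated test called 5 in set 1 against No gRNA (2 higher and 3 lower), where 37.8% of 15721 genes were called. It called 5 in set 2, all lower, where 52.4% were. The median log2 fold change of the 9 was 0.052 in set 1, beside -0.0080 over all genes, and -0.53 in set 2, beside -0.012. TREAT called none of the 9 in set 1, with 1.47% of genes called, and called ITGB3 in set 2, with 4.14% of genes called. The sets share the No gRNA libraries.

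ITGA2 read 847, 898 and 797 CPM in No gRNA, 1193, 1228 and 1312 CPM in set 1 and 692, 691 and 716 CPM in set 2. The No gRNA libraries thus lay between the sets, with no overlap. The log2 fold change was 0.55 (SE 0.0437, adjusted p = 2.31e-06) in set 1 and -0.27 (SE 0.0491, adjusted p = 7.57e-04) in set 2. ITGA5 showed the same order, at 320, 328 and 282 CPM in No gRNA, 375, 365 and 381 CPM in set 1 and 214, 213 and 194 CPM in set 2. Its log2 fold change was 0.27 (SE 0.0600, adjusted p = 0.00445) in set 1 and -0.57 (SE 0.0669, adjusted p = 2.54e-05) in set 2. ITGAV read 160, 186 and 197 CPM in No gRNA, 200, 192 and 205 CPM in set 1 and 169, 149 and 148 CPM in set 2, overlapping No gRNA in both sets, with log2 fold changes of 0.14 (SE 0.0813, adjusted p = 0.215) and -0.21 (SE 0.0848, adjusted p = 0.0567). Without No gRNA replicate 1 or set 2 replicate 1, ITGAV was called lower in set 2, at -0.30 and -0.27 (adjusted p = 0.00629 and 0.0345), and with all libraries DESeq2 called it there (0.0326) and above wild type in set 2 (0.0284, against 0.0711 by limma). ITGB1 was nearly level, between 1151 and 1277 CPM over these 9 libraries, with 0.052 (SE 0.0307, adjusted p = 0.215) and -0.022 (SE 0.0310, adjusted p = 0.589).

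ITGB5 read 162, 169 and 165 CPM in No gRNA, 95.2, 90.5 and 89.4 CPM in set 1 and 121, 106 and 109 CPM in set 2. All targeted libraries lay below all No gRNA libraries. The log2 fold change was -0.85 (SE 0.0565, adjusted p = 5.65e-07) in set 1 and -0.55 (SE 0.0538, adjusted p = 5.55e-06) in set 2. ITGB3 read 10.0, 11.05 and 9.72 CPM in No gRNA, 3.93, 6.94 and 5.41 CPM in set 1 and 1.64, 0.781 and 0.859 CPM in set 2. The 3 groups did not overlap, and set 2 was the lowest. The log2 fold change of ITGB3 was -0.95 in set 1 (SE 0.212, adjusted p = 0.00430, TREAT adjusted p = 1) and -3.26 in set 2 (SE 0.348, adjusted p = 1.19e-05, TREAT adjusted p = 0.00124). A readthrough gene on the same strand, ENSG00000259753, overlaps ITGB3 and took 0 to 27.04 counts in MDA-MB-231 libraries where ITGB3 took 13.4 to 201, so that part of the reads could be assigned to either.

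The low members moved less certainly. ITGB6 read 6.07, 3.07 and 3.15 CPM in No gRNA, 4.31, 3.47 and 5.85 CPM in set 1 and 1.70, 2.61 and 0.925 CPM in set 2. Set 1 overlapped No gRNA and set 2 lay below it. The log2 fold change was 0.18 (SE 0.381, adjusted p = 0.741) in set 1 and -1.23 (SE 0.483, adjusted p = 0.0513) in set 2, not past the threshold, though the adjusted p of set 2 was 0.0464 by edgeR's quasi-likelihood test and 0.0303 by DESeq2. ITGB8 read 1.05, 1.28 and 1.03 CPM in No gRNA, 0.818, 0.527 and 0.513 CPM in set 1 and 0.959, 1.29 and 1.02 CPM in set 2. Set 1 gave a log2 fold change of -0.85 (SE 0.295, adjusted p = 0.0413), a call on 7.97 to 23.3 counts a library that was lost without any No gRNA library and without set 1 replicate 2 or 3 (adjusted p between 0.0645 and 0.135), by DESeq2 (0.104) and with no filter on low counts (0.0743). In set 2 it gave -0.030 (SE 0.259, adjusted p = 0.934).

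ITGB2 read 22.5, 21.7 and 17.9 CPM in No gRNA, 16.1, 18.3 and 18.2 CPM in set 1 and 13.9, 13.98 and 14.9 CPM in set 2. It was lower in set 2, at -0.53 (SE 0.112, adjusted p = 0.00201), and gave -0.24 (SE 0.108, adjusted p = 0.105) in set 1. Without No gRNA replicate 3 set 1 was called too, at -0.34 (adjusted p = 0.0241). Leukocyte markers were highest in the same No gRNA group. The summed level of 5 markers (PTPRC, CD3E, CD14, LYZ and CSF1R) was 4.67 to 7.10 CPM in No gRNA, 1.98 to 2.60 in set 1, 1.47 to 2.28 in set 2 and 1.21 to 2.38 in wild type. Most of it was CD14, at 3.43 to 5.48 CPM in No gRNA, whereas PTPRC, CD3E and LYZ did not exceed 0.294 CPM in any MDA-MB-231 library. The part of these markers in the ITGB2 difference was not tested. The antisense gene ITGB2-AS1 took 5.36 to 62.8 counts in these libraries, and the strandedness of the counting is not given in the sources used here.

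Set 1 and set 2 differed from each other in most members. The moderated test called 7 of 9 (5 higher in set 1 and 2 lower), where 51.5% of genes were called, and TREAT called none, where 3.07% were. ITGA2 was higher in set 1 by 0.82 (SE 0.0467, adjusted p = 6.47e-08), ITGA5 by 0.84 (SE 0.0661, adjusted p = 9.65e-07), ITGAV by 0.35 (SE 0.0849, adjusted p = 0.00504), ITGB3 by 2.31 (SE 0.366, adjusted p = 2.63e-04, TREAT adjusted p = 0.0644) and ITGB6 by 1.41 (SE 0.481, adjusted p = 0.0287), all on the log2 scale. ITGB5, at -0.30 (SE 0.0606, adjusted p = 0.00153), and ITGB8, at -0.82 (SE 0.300, adjusted p = 0.0393), were lower in set 1. ITGB3 passed the fold threshold of 1 by edgeR (adjusted p = 0.0119) and by DESeq2 (0.0226). It also passed TREAT without set 1 replicate 1 (0.0279). The call on ITGB6 was lost without replicate 1 or 3 of either set (adjusted p between 0.0565 and 0.108), and that on ITGB8 without set 1 replicate 2 or 3 or any set 2 library (between 0.0503 and 0.127), by DESeq2 (0.113) and with no filter on low counts (0.0651).

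Testing the difference between the lines directly, the mean change of the targeted groups from No gRNA in SUM159 minus that in MDA-MB-231, called 4 of 9 members, where 25.4% of 17182 genes were called, and 1 by TREAT, where 0.954% were. ITGB5 differed by 1.13 (SE 0.0746, adjusted p = 6.75e-10), having risen in both targeted groups of SUM159 and fallen in both sets of MDA-MB-231. ITGB3 differed by 1.98 (SE 0.241, adjusted p = 3.45e-06, TREAT adjusted p = 0.0342), with a fall in MDA-MB-231 and no call in SUM159. ITGA2 differed by 0.27 (SE 0.0524, adjusted p = 7.08e-04), a value that averages 2 MDA-MB-231 sets that moved in opposite directions, at 0.55 in set 1, above both SUM159 groups (0.49 and 0.28), and -0.27 in set 2. ITGB1 differed by -0.16 (SE 0.0557, adjusted p = 0.0412), a call that edgeR did not make (0.0523). Without any 1 of the 3 replicate numbers the TREAT call on ITGB3 was lost (adjusted p between 0.110 and 0.738), as it was with no filter on low counts (0.0670), and so was the call on ITGB1 (between 0.0665 and 0.206). SUM159 was in run 1 and MDA-MB-231 in run 2, so the line and the run cannot be told apart here. ITGB2 and ITGB6 entered this test with SUM159 at or under 3 counts, and no difference is read from them. Its baseline is No gRNA, which differed from wild type in opposite directions in the 2 lines for ITGB5 and ITGA2. Against wild type, the log2 fold change of ITGB5 was 0.039 in All gRNA, -0.042 with gRNA 4, 0.37 in set 1 and 0.67 in set 2. In the same order ITGA2 gave 0.14, -0.074, 2.10 and 1.29, and ITGB3 gave 0.16, -0.028, 1.95 and -0.36. ITGB1 gave -0.20, -0.28, 0.39 and 0.32. A line difference from wild type was not tested.

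Against wild type, most members of MDA-MB-231 were already higher in the No gRNA cells. The moderated test called 7 of 9, all higher, where 53.8% of genes were called, and TREAT called ITGA2, ITGB3 and ITGB5, where 3.60% were. ITGA2 read 269, 278 and 283 CPM in wild type, which all No gRNA libraries exceeded, and was 1.55 higher on the log2 scale (SE 0.0608, TREAT adjusted p = 8.88e-05). ITGB3 read 1.14, 2.06 and 0.932 CPM in wild type and was 2.90 higher in No gRNA (SE 0.317, TREAT adjusted p = 0.00236). ITGB5 read 63.5, 68.2 and 72.1 CPM in wild type and was 1.22 higher (SE 0.0595, TREAT adjusted p = 0.0463, a call that was lost without any 1 of these 6 libraries, with adjusted p between 0.0588 and 0.249). ITGA5 was 1.19 higher (adjusted p = 1.03e-07), ITGB2 0.77 (adjusted p = 1.58e-04), ITGAV 0.44 (adjusted p = 0.00129) and ITGB1 0.34 (adjusted p = 4.46e-06).

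The direction of the ITGB5 change in MDA-MB-231 depended on the control, lower than No gRNA but higher than wild type in both sets. In set 1, ITGA2 and ITGA5 were above both controls and ITGB8 was below both. Against wild type, set 1 had 8 of 9 members called by the moderated test (7 higher, ITGB8 lower), where 59.5% of genes were. The 7 were ITGA2, ITGA5, ITGAV (0.57, adjusted p = 1.42e-04), ITGB1, ITGB2 (0.54, adjusted p = 0.00238), ITGB3 and ITGB5. TREAT called 2 of them (ITGA2 and ITGA5), where 8.42% of genes were called. Set 2 had 4 called, ITGA2, ITGA5, ITGB1 and ITGB5, all higher, where 36.3% of genes were, and ITGA2 by TREAT (adjusted p = 0.0297), where 1.44% were. The TREAT call in set 2 was lost without any 1 of the 6 libraries, with adjusted p between 0.0653 and 0.150, and with no filter on low counts (0.0898). ITGB5 was 0.37 above wild type in set 1 (SE 0.0657, adjusted p = 4.77e-04) and 0.67 above it in set 2 (SE 0.0635, adjusted p = 1.08e-05). ITGB3 in set 2 was at the wild type level within error, at -0.36 (SE 0.436, adjusted p = 0.553), and in set 1 it was 1.95 above it (SE 0.337, adjusted p = 3.83e-04). ITGB8 was lower than wild type in set 1, at -0.98 (SE 0.294, adjusted p = 0.0128), a call lost without set 1 replicate 2 or 3 (0.0556 and 0.0525).

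In SUM159 the No gRNA cells went the other way and were lower than wild type of run 1 in ITGA2, ITGB5, ITGAV and ITGB8. These 4 of 7 were called where 42.9% of genes were, and none passed TREAT, where 1.53% did. ITGA2 read 837, 816 and 810 CPM in wild type and gave -0.35 (SE 0.0398, adjusted p = 3.21e-05). ITGB5 read 134.5, 138.4 and 137.0 CPM in wild type and gave -0.40 (SE 0.0659, adjusted p = 4.98e-04). ITGAV gave -0.17 (SE 0.0487, adjusted p = 0.0154) and ITGB8 -0.69 (SE 0.163, adjusted p = 0.00490). The ITGB5 level of the targeted cells was close to that of wild type, with log2 differences of 0.039 (SE 0.0630, adjusted p = 0.634) in All gRNA and -0.042 (SE 0.0638, adjusted p = 0.621) with gRNA 4.

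Against wild type, All gRNA had 4 of 7 called, where 48.7% of genes were (TREAT none, where 2.30% were), and gRNA 4 had 3, where 46.8% were (TREAT none, where 2.46% were). ITGAV, ITGB1 and ITGB8 were lower in both, at -0.31, -0.20 and -0.90 in All gRNA (adjusted p = 2.82e-04, 0.00931 and 9.46e-04) and at -0.39, -0.28 and -0.83 with gRNA 4 (adjusted p = 5.77e-05, 0.00124 and 0.00165). ITGA2 was 0.14 higher in All gRNA (SE 0.0383, adjusted p = 0.00884). All these SUM159 comparisons share libraries with each other.

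Wild type SUM159 itself differed between the runs in 6 of 7 members, where 62.1% of genes were called, and in ITGA2 by TREAT, where 6.65% were. ITGA2 read 272, 286 and 266 CPM in run 2, below run 1 at a log2 difference of -1.58 (SE 0.0366, TREAT adjusted p = 1.01e-04). ITGAV read 154, 116 and 155 CPM in run 2 against 336, 326 and 338 CPM in run 1, a difference of -1.25 (SE 0.0977, adjusted p = 4.14e-05). ITGB8, at 0.209, 1.59 and 0.603 CPM against 4.19, 5.14 and 5.37 CPM, differed by -2.96 (SE 0.523, adjusted p = 0.00212), and without run 2 replicate 2 by -3.64, which passed TREAT (0.0217). ITGB1 was lower in run 2, at -0.51 (adjusted p = 2.92e-05), and ITGA5 and ITGB3 were higher by 0.47 and 0.63 (adjusted p = 2.76e-04 and 0.00373). ITGB5 was the exception, at 131, 137 and 134 CPM in run 2, with -0.035 (SE 0.0424, adjusted p = 0.504). The differences of ITGA2, ITGAV and ITGB1 between the runs were each larger than the changes of these genes with gRNAs in SUM159.

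**Figure D3:**
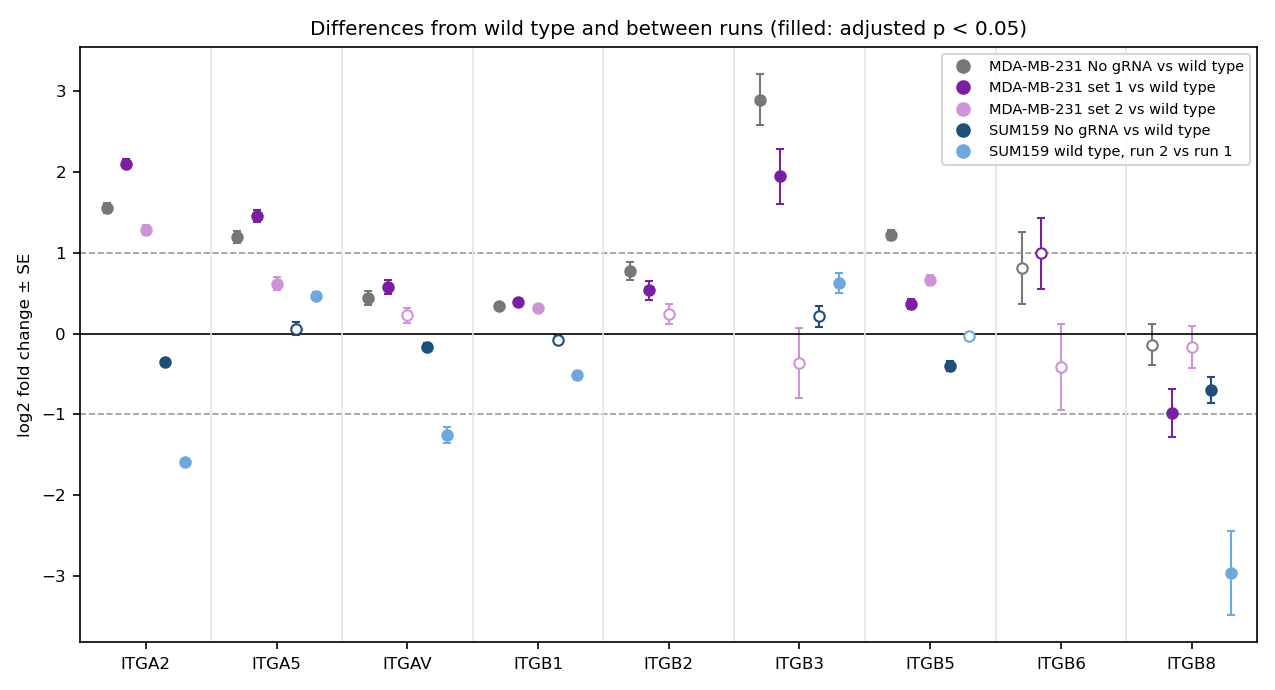
Log2 fold change with its SE for No gRNA, set 1 and set 2 of MDA-MB-231 against wild type, for No gRNA of SUM159 against wild type of run 1, and for wild type SUM159 of run 2 against run 1. Filled points have an adjusted p under 0.05 by limma's moderated test, and dashed lines mark a log2 fold change of 1 either way. ITGA2 is above wild type in all 3 transduced MDA-MB-231 groups, at 1.55, 2.10 and 1.29, and lower in run 2 than in run 1 of SUM159, at -1.58.

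Between the lines, wild type in run 2 of both, 6 of 9 members were called (3 higher and 3 lower in SUM159), where 75.5% of genes were, and 4 by TREAT, where 29.1% were. ITGA5, at 517, 568 and 533 CPM in SUM159 and 121, 126 and 142 CPM in MDA-MB-231, was 2.04 higher in SUM159 (SE 0.0668, TREAT adjusted p = 1.17e-05). ITGB3 was 3.33 higher (SE 0.267, TREAT adjusted p = 2.08e-04) and ITGB5 0.97 higher (SE 0.0568, adjusted p = 4.54e-06). ITGB1 was slightly lower, at -0.20 (SE 0.0384, adjusted p = 0.00246), and ITGB2 and ITGB6 were the low or absent chains described above. Without SUM159 run 2 replicate 2, ITGAV (0.28, adjusted p = 0.0146) and ITGB8 (-1.62, adjusted p = 0.0291) were called too. With SUM159 wild type of run 1 in place of run 2, TREAT called 7 members, while the number of all genes called stayed within 1.5 times that of run 2. This comparison was added after the data were seen, and line and run coincide in it. ITGA2 then differed by 1.58 (adjusted p = 6.52e-08) instead of -0.020 (adjusted p = 0.661), ITGAV by 1.39 instead of 0.13, and ITGB8 by 2.03 instead of -0.95. ITGB1 turned from -0.20 to 0.33 (adjusted p = 8.62e-05). ITGA5, ITGB3 and ITGB5 kept their direction, at 1.59, 2.72 and 1.02.

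The other genes of the pathway were taken as 5 lists, whose counts stand beside the shares of all genes called against No gRNA, 10.8% in All gRNA, 11.0% with gRNA 4, 37.8% in set 1 and 52.4% in set 2. All fold changes of the lists are against No gRNA unless wild type is named. Of the 16 other integrin subunits, 10 were tested in SUM159, with 2 higher and 2 lower in All gRNA (median log2 fold change 0.036) and 1 higher and 2 lower with gRNA 4 (median -0.19). In MDA-MB-231 9 were tested, with 1 higher and 3 lower in set 1 (median 0.082) and 2 higher and 4 lower in set 2 (median -0.49). ITGB4, the beta chain of hemidesmosomes, rose in SUM159 by 0.67 in All gRNA (adjusted p = 6.94e-06) and by 0.56 with gRNA 4 (adjusted p = 3.55e-05). In MDA-MB-231 it was higher in set 2, by 0.34 (adjusted p = 0.00240), and not called in set 1 (0.19, adjusted p = 0.0736). ITGA1, a collagen receptor chain like ITGA2, was lower than No gRNA in both lines, at -0.44 in All gRNA, -0.55 with gRNA 4, -0.60 in set 1 and -1.44 in set 2. No gRNA itself was above wild type in ITGA1, by 0.74 in SUM159 and 1.55 in MDA-MB-231, and against wild type set 1 was 0.96 higher (adjusted p = 1.78e-05), while the other targeted groups were not called, at 0.30 in All gRNA (adjusted p = 0.0511), 0.19 with gRNA 4 and 0.11 in set 2. The collagen receptor chains ITGA10 (-1.80 and -2.82 in sets 1 and 2) and ITGA11 (-1.53 and -2.58) were lower than No gRNA in MDA-MB-231. Against wild type ITGA10 was lower in set 2, at -1.20 (adjusted p = 0.00147), and was not called in set 1, and ITGA11 was not called in either set (0.41 and -0.65). ITGB4 was above wild type in all 3 transduced SUM159 groups, by 0.97 in No gRNA, 1.64 in All gRNA and 1.52 with gRNA 4.

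Adaptors and kinases at the cytoplasmic face of integrins, 20 genes with 19 tested in either line, had 2 calls in SUM159, with 1 higher in All gRNA and 1 lower with gRNA 4 (medians 0.047 and 0.059). In MDA-MB-231, 7 were higher and 2 lower in set 1 (median 0.25), and 10 were higher and 5 lower in set 2 (median 0.31). FERMT1, an epithelial kindlin that activates integrins, rose by 1.95 in set 1 and 2.16 in set 2 (adjusted p = 7.50e-08 and 1.24e-08). PXN, a focal adhesion scaffold, rose by 0.25 and 0.68, and TNS3, a tensin, fell, at -0.52 and -0.46. FERMT1 was also above wild type in both sets, by 1.76 and 1.97. PXN was below wild type in set 1, at -0.12 (adjusted p = 0.0142), and above it in set 2 by 0.32, and TNS3 was not called against wild type in either set (-0.033 and 0.030).

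Of 18 ligands, 13 were tested in either line, with 1 higher and 4 lower in All gRNA (median -0.024) and 5 lower with gRNA 4 (median -0.061). In MDA-MB-231, 5 were higher and 3 lower in set 1 (median 0.40), and 5 were higher and 6 lower in set 2 (median -0.42). FN1, the fibronectin bound by ITGA5 and ITGAV receptors, was lower than No gRNA in all 4 comparisons, at -0.71 in All gRNA, -0.51 with gRNA 4, -1.002 in set 1 and -1.89 in set 2. No gRNA exceeded wild type in FN1 by 2.55 in MDA-MB-231, and against wild type FN1 was higher in set 1, by 1.55 (adjusted p = 6.86e-07), and in set 2, by 0.67 (adjusted p = 0.00264). In SUM159 No gRNA exceeded wild type by 0.53, and FN1 against wild type was -0.19 in All gRNA (adjusted p = 0.0133) and 0.016 with gRNA 4 (adjusted p = 0.824). VCAM1, the ligand of ITGA4, fell in SUM159, at -1.81 and -2.27, in cells where ITGA4 was at 0. COL1A1, a collagen bound by ITGA2, fell in SUM159, at -0.70 and -0.75, and rose in MDA-MB-231 by 0.88 and 0.92. THBS1, which binds several integrins and latent TGF-beta, rose in MDA-MB-231 by 2.02 and 2.42. Against wild type the directions were kept by VCAM1 in SUM159 (-1.70 and -2.15) and by COL1A1 (1.20 and 1.25) and THBS1 (1.53 and 1.93) in MDA-MB-231, all called, while COL1A1 in SUM159 was not called (-0.025 and -0.071).

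Among the 8 genes of latent TGF-beta and its carriers, 6 were tested in SUM159, with 1 higher in All gRNA and none called with gRNA 4 (medians 0.0016 and 0.10). All 8 were tested in MDA-MB-231, with 1 higher and 3 lower in set 1 (median -0.22) and 5 lower in set 2 (median -0.66). LTBP1 and LTBP4, which hold latent TGF-beta in the matrix, were lower than No gRNA, at -0.37 and -0.26 in set 1 and at -1.17 and -1.14 in set 2. LTBP1 was 4.04 higher in No gRNA than in wild type and was also above wild type in set 1, by 3.66 (adjusted p = 1.66e-09), and in set 2, by 2.86 (adjusted p = 8.40e-08). LTBP4 was 0.88 higher in No gRNA than in wild type and 0.62 higher in set 1 (adjusted p = 1.25e-04), and was not called in set 2 (adjusted p = 0.0755). Of 8 genes known to respond to TGF-beta, all tested, 1 was lower in All gRNA and 2 with gRNA 4 (medians -0.059 and -0.094). In set 1, 5 were higher (median 0.42), and in set 2, 2 were higher and 3 lower (median -0.020). TGFBI, a secreted matrix protein, fell in SUM159, at -0.97 and -0.83, and against wild type was -0.25 in All gRNA (adjusted p = 4.31e-04) and -0.11 with gRNA 4 (adjusted p = 0.0538). PMEPA1, a feedback inhibitor of TGF-beta signaling, rose in MDA-MB-231 by 2.01 in set 1 and 1.99 in set 2, and SKIL, another, by 0.62 and 0.22. Both were above wild type in each set, PMEPA1 by 2.84 and 2.82 and SKIL by 1.20 and 0.81.

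Over the 27 libraries, with the mean of each line taken out, ITGA2, ITGAV and ITGB1 went together. Pearson's r of log2 CPM was 0.84 for ITGAV with ITGB1, 0.84 for ITGA2 with ITGB1 and 0.82 for ITGA2 with ITGAV, while ITGAV and ITGB5 gave 0.15. ITGA5, which also pairs with ITGB1, gave lower values, at 0.37 with ITGB1, 0.46 with ITGA2 and 0.12 with ITGAV. These values describe 9 groups with shared runs and clones and carry no test. Differences between the runs of SUM159 wild type, and between wild type and transduced cells, remain in them. Against No gRNA in SUM159, ITGA2 was higher (0.49 and 0.28 in All gRNA and gRNA 4). There ITGAV (-0.14 and -0.22) and ITGB1 (-0.13 and -0.21) were negative, and called only with gRNA 4. Within each MDA-MB-231 set these genes had the same sign, but ITGAV and ITGB1 were not called. The genes whose pattern was most like that of ITGA2 were MSN (r = 0.972), DHRS3 (0.963) and SDC4 (0.962). For ITGA5 they were CSGALNACT2, GCC1 and ZSWIM6 (0.952 each), for ITGAV RIPK2, ETS2 and TNFAIP3 (0.930 to 0.924), and for ITGB1 RIPK2, RAPGEF1 and SPTBN1 (0.940 to 0.893). ITGB3 was most like XPOT, AARS1 and VAMP2 (0.934 to 0.930) and ITGB5 like EPB41L3, CARS1 and SCD (0.858 to 0.830). For ITGB8 these were SKA1, NOL8 and ARHGAP11A (0.903 to 0.878), for ITGB2 RTL8A, ENSG00000258964 and TNFRSF21 (0.931 to 0.930), and for ITGB6 RPGR, METTL27 and C2orf74-DT (0.800 to 0.750). ITGB2 was above 3 counts in only 15 of the 27 libraries and ITGB6 in only 12, so their values rest in part on libraries at the floor.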

How the data were processed

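The authors sequenced RNA as single-end reads of 50 bp and deposited estimated counts, made with Salmon on GRCh38 and collected per gene by tximport with a correction for transcript length. The version and annotation are not given in the sources used here. Groups of 3 libraries followed the sample labels. Comparisons used R 4.3.3, limma 3.58.1 and edgeR 4.0.16 over the whole table. The filter was filterByExpr (minimum count 10). Counts were scaled with TMM and fitted with voom (0.5 added to each count) over the 12 libraries of a line, over 6 for runs and for lines, and over 24 for the interaction. Two-sided p-values came from limma's moderated test against 0 and from TREAT, with a log2 fold change of 1 as its null, both with Benjamini-Hochberg adjustment over all genes and a threshold of 0.05. CPM use TMM-scaled totals, and levels per kb use the length of the Ensembl canonical transcript of GENCODE. Estimated counts were rounded for edgeR and DESeq2 1.42.0, which were alternatives, along with other scaling, no filter, a replicate block and each library left out. For the interaction, each replicate number was left out of all groups instead. A floor of 3 counts covers counting error only. The steps were tested on simulated data.

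The members and gene lists were chosen with earlier results of these data known. All members are named in each comparison with No gRNA and those called by the moderated test elsewhere. From each list the examples are up to 3 genes per line with the largest mean change among those called in the same direction in both targeted groups. Some genes of the lists are not reported here. The most alike genes are the 3 with the highest correlation. Replicate numbers in the labels did not pair the libraries. Residual differences between same-numbered libraries of 2 groups correlated between -0.083 and 0.059.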

Additional observations from a re-analysis of the deposited data

Results flagged for a closer look

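The change of 4 integrin genes with gRNAs differed between the lines by the interaction test of limma, given here as the log2 change in SUM159 minus that in MDA-MB-231. ITGB5 differed by 1.13, with a rise in each targeted SUM159 group and a fall in each MDA-MB-231 set. ITGB3 differed by 1.98, ITGA2 by 0.27 and ITGB1 by -0.16. The value of ITGA2 averages the MDA-MB-231 sets, of which set 1 was higher than No gRNA (0.55) and set 2 lower (-0.27), and set 1 alone rose by more than either SUM159 group (0.49 and 0.28). Line and sequencing run coincide in this test and cannot be told apart. Its baseline is No gRNA, and a line difference from wild type was not tested. Against wild type, ITGB5 gave 0.039 in All gRNA, -0.042 with gRNA 4, 0.37 in set 1 and 0.67 in set 2. In the same order ITGB3 gave 0.16, -0.028, 1.95 and -0.36, and ITGA2 gave 0.14, -0.074, 2.10 and 1.29. ITGB1 gave -0.20, -0.28, 0.39 and 0.32.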

How the results depend on the processing

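With DESeq2 size factors in place of TMM, 0 integrin calls changed, and the median log2 fold change of all genes moved by at most 0.0231. The replicate number as a block, which the labels do not tie to a shared culture and which did not pair the libraries, left 0 integrins called between All gRNA and gRNA 4 of SUM159 (1 without the block) and 68 of 143 genes, and lost the ITGB8 calls of set 1 (adjusted p = 0.0634 against No gRNA and 0.0588 against set 2) and the TREAT call on ITGB5 between No gRNA and wild type of MDA-MB-231 (0.0968). Under the block ITGB6 in set 2 against No gRNA (0.0289) and ITGB1 between the sets (0.0294) were called, and no other integrin call changed.

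Between set 1 and set 2 TREAT called 1 integrin by edgeR and 1 by DESeq2, against 0. The fold threshold of 1 was also passed by edgeR for ITGA5 in No gRNA against wild type of MDA-MB-231 (adjusted p = 0.0371, against 0.2305 by limma). ITGB3 in set 1 against wild type passed it too (0.0270, against 0.0903). Both passed TREAT without 1 library, ITGA5 without No gRNA replicate 3 (0.0341) and ITGB3 without set 1 replicate 1 (0.0296). With no filter TREAT called 0 in set 2 against wild type and 0 in the interaction, against 1 each, and 2 between the runs of SUM159, against 1. The second was ITGB2, at 0 counts in run 1. With SUM159 wild type of run 1, a choice made after seeing the data, it called 7 integrins between the lines, against 4. The number of all genes called stayed within 1.5 times there.

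With 1 library left out at a time, the moderated test called 2 to 4 integrins with gRNA 4 against No gRNA and 0 to 1 between All gRNA and gRNA 4. TREAT called 0 to 1 between set 1 and set 2, 2 to 3 in No gRNA against wild type of MDA-MB-231, 1 to 3 between the runs and 0 in set 2 against wild type. For the interaction, 1 replicate number was left out of every group at a time, and TREAT then called 0 integrins. Values that changed sign were all uncalled. They were ITGA5 (-0.020 to 0.077) and ITGB3 (-0.099 to 0.026) in All gRNA, ITGB6 in set 1 (-0.0067 to 0.50) and ITGB8 in set 2 (-0.16 to 0.085).

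Over all genes, the counts that moved by more than 1.5 times under another tool or filter were those between All gRNA and gRNA 4 (TREAT 2 by edgeR, 3 by DESeq2 and 1 with no filter, against 0, and 355 by DESeq2 without a fold threshold, against 143), and TREAT by edgeR in No gRNA and All gRNA against wild type of SUM159 (363 and 547, against 231 and 349) and between the sets (740, against 483). Without 1 library, TREAT called 31 to 43 genes in All gRNA against No gRNA and 147 to 180 in No gRNA against wild type of SUM159, against 60 and 231. The moderated test then called 1048 to 1300 in All gRNA against No gRNA and 59 to 85 between All gRNA and gRNA 4, against 1639 and 143. In the interaction, without 1 replicate number in every group, TREAT called 78 to 97 genes and the moderated test 2558 to 3042, against 164 and 4363. Depth limits what can be read from ITGA4 and ITGB6 in SUM159, and from ITGB2 in SUM159 of run 1. There they were at or under the floor of 3 counts, where a low level and absence cannot be told apart.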
